A study of Mus musculus with 2 samples.

Results

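The 10 genes described here encode parts of the thin filament of muscle. They come from a list that was chosen with earlier results of these data known. It holds the striated and smooth muscle actins *Actc1*, *Acta1* and *Acta2* and the α-tropomyosin gene *Tpm1*. It also holds the troponin T genes *Tnnt2* and *Tnnt3*, the troponin C gene *Tnnc1* and the troponin I genes *Tnni1*, *Tnni2* and *Tnni3*. These genes are 10 of 21938 protein-coding genes annotated by GENCODE M21 on the chromosomes of the mouse genome build mm10. Chromatin accessibility was profiled by ATAC-seq, in which the Tn5 transposase cuts and tags open DNA, in hearts of WT embryos of strain FVB at E11.5 (49 to 51 somites). The 2 biological replicates were each made from a pair of hearts, carry no altered allele or treatment and form a single group, so no comparison between conditions and no p-value is given. Whole hearts hold many cell types, and fewer cells of a type cannot be told apart from lower accessibility per cell.

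In striated muscle, troponin and tropomyosin sit along the actin filament and make contraction depend on calcium: troponin C binds calcium, troponin I inhibits actin and myosin interaction, and troponin T anchors both to tropomyosin. Most of these proteins come as a cardiac form and as slow or fast skeletal forms encoded by separate genes, and the embryonic heart is known to use some forms that the adult heart does not, among them the slow skeletal troponin I of *Tnni1* and the smooth muscle actin of *Acta2*. *Actc1*, *Tnnt2*, *Tnnc1*, *Tnni3* and *Tpm1* were taken as the 5 cardiac genes, although *Tnnc1* and *Tpm1* also serve skeletal muscle, and *Acta1*, *Tnnt3*, *Tnni1* and *Tnni2* as the 4 skeletal genes. *Acta2* was put in neither set.

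The level given for a peak is its fold enrichment, the height of the read pile-up at the summit over a genome-wide background. A shared region is the stretch covered by a peak in both replicates, of which there were 98924, and each carries the fold enrichment of the replicate 1 and of the replicate 2 peak that it was trimmed from. The peak lists held 118027 peaks in replicate 1 and 114783 in replicate 2, with median fold enrichments of 5.70 and 5.03. Total read counts are not given with the lists, but the steps between fold enrichments place the background at 2.68 reads per position in replicate 1 and 2.98 in replicate 2, which sets how many reads stand behind each summit.

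The sequence just upstream of 5 of these genes is shown first, so that the elements in each promoter can be set beside its accessibility, above all for the paralogs *Actc1* and *Acta1*. Each stretch is the 250 bases before the start in RefSeq (GRCm38.p6), 5′ to 3′ on the strand of the gene, and capitals mark matches on either strand to 8 motifs. These are the CArG box bound by serum response factor, spelled CCWWWWWWGG, and the site bound by MEF2 factors, spelled YTAWWWWTAR. W stands for A or T, Y for C or T and R for A or G. The others are the GATA element spelled AGATAA, the MCAT element bound by TEAD factors and spelled CATTCC and the element of T-box factors spelled AGGTGT. The NKX2-5 element spelled TNAAGTG, the E-box spelled CAGCTG and the TATA motif spelled TATAAA complete the 8. Only exact matches are in capitals, so near CArG boxes such as ccctatatgg in *Actc1* and ccatatacgg in *Acta1* stay in lower case. Positions count back from the RefSeq start, the base before it being −1. The RefSeq start is also a GENCODE start for *Tnni1* and *Tnnc1*, whereas it lies 24 bases upstream of the GENCODE start of *Acta1*, 20 bases upstream of the nearest one of *Tnnt2* and 12 bases downstream of the nearest one of *Actc1*. The stretches are *Actc1* at chr2:114052876-114053125 (minus strand), *Acta1* at chr8:123894776-123895025 (minus strand), *Tnnt2* at chr1:135836084-135836333 (plus strand), *Tnni1* at chr1:135799171-135799420 (plus strand) and *Tnnc1* at chr14:31208062-31208311 (plus strand).
Actc1: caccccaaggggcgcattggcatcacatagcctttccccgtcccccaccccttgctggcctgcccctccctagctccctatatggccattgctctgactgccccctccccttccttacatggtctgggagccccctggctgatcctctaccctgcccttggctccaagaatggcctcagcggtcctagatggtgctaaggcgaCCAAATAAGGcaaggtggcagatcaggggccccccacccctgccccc
Acta1: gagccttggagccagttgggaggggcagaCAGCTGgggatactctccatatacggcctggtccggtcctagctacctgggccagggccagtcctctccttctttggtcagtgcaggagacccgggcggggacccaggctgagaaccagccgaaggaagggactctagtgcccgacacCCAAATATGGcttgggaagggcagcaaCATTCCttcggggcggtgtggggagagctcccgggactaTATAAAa
Tnnt2: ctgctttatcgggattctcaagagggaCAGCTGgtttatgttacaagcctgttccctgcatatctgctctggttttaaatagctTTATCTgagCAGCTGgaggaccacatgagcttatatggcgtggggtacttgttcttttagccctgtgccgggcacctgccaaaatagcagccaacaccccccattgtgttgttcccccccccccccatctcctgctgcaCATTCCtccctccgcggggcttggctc
Tnni1: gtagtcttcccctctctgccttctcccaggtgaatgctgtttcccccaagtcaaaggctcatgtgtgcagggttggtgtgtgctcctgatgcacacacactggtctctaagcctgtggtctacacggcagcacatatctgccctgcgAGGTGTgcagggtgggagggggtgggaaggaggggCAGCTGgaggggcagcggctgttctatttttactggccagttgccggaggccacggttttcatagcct
Tnnc1: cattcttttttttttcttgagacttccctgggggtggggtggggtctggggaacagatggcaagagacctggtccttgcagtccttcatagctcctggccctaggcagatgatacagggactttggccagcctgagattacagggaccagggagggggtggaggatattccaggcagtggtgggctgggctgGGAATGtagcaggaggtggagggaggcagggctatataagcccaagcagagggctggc

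The capitals in *Actc1* are a CArG box from −47 to −38. Its promoter entry also held a TATA motif 33 to 38 bases downstream of the RefSeq start, outside the stretch shown. In *Acta1* they are an E-box from −221 to −216, a CArG box from −73 to −64, an MCAT element from −46 to −41 and the TATA motif from −7 to −2. Among all 21263 promoters of protein-coding genes searched from 250 bases before to 50 after the start, 1.52% held an exact CArG box. The members had 10 promoter entries (8 of 10 genes matched, not *Tnnt3* and *Tnni2*, with *Tnni1* and *Tnnt2* entered 2 times each). Of these, those of *Actc1* and *Acta1* held one, and near matches such as ccctatatgg in *Acta2* were not counted. The *Tnnt2* stretch holds an E-box from −223 to −218, a GATA element on the opposite strand from −166 to −161, a second E-box from −157 to −152 and an MCAT element from −27 to −22. That of *Tnni1* holds a T-box element from −103 to −98 and an E-box from −68 to −63, and that of *Tnnc1* an MCAT element on the opposite strand from −58 to −53. MCAT was found in 13.6% of all promoters and in 5 of the 10 member entries, the E-box in 15.6% and 5 (from 4 genes, since the *Tnni1* entries overlap), the T-box element in 12.7% and 3 (from 2 genes), GATA in 9.65% and 1, and the TATA motif in 12.6% and 2. No member entry held the MEF2 site (2.74% of all promoters) or the NKX2-5 site (10.8%). All 250 bases of the *Actc1*, *Tnnt2* and *Tnni1* stretches lay in a shared region, against 236 for *Tnnc1* and 164 for *Acta1*. The second *Tnnt2* entry in RefSeq, whose 250 bases upstream are chr1:135836739-135836988, had no base in a shared region and no motif match. Windows of 100 bp on each side of the replicate 1 summits were searched as well, for the 19 regions at member starts that hold the summit: the GATA element was in 3 of them (17.2% of the windows over all shared regions), MCAT in 3 (14.8%), the E-box in 2 (17.8%), the MEF2 site in 2 (3.74%), the CArG box in 2 (1.23%), the T-box element in 1 (8.56%), the TATA motif in 1 (6.93%) and the NKX2-5 element in 0 (11.6%).

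All 10 members had a shared region within 1 kb of at least 1 annotated start, as did 67.6% of the protein-coding genes. The fold enrichment of the highest such region ranged from 5.70 and 4.27 (replicates 1 and 2) at *Acta1* to 35.0 and 34.9 at *Tpm1*. By their mean, the members ran from *Tpm1* through *Tnni1*, *Actc1*, *Tnnt2*, *Tnnc1*, *Acta2*, *Tnni3*, *Tnni2* and *Tnnt3* to *Acta1*. *Tnnc1* holds its place by a region at a start of the neighbouring gene *Nisch*. With only regions whose replicate 1 summit is inside the window, its mean was 13.4, below *Acta2* and *Tnni3*. The ranges over the 2 replicates of neighbours in this order overlapped except at 3 steps, from *Tpm1* to *Tnni1*, from *Tnnt2* to *Tnnc1* and from *Tnni3* to *Tnni2*. Over the 14820 protein-coding genes with a region the median was 24.4 in replicate 1 and 24.6 in replicate 2, and only *Tpm1* and *Tnni1* exceeded the median of the mean values, 24.5. The log2 ratio of replicate 1 to replicate 2 at these genes had a median of 0.03, and its central 95% ran from −0.35 to 0.54.

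**Figure D1:**
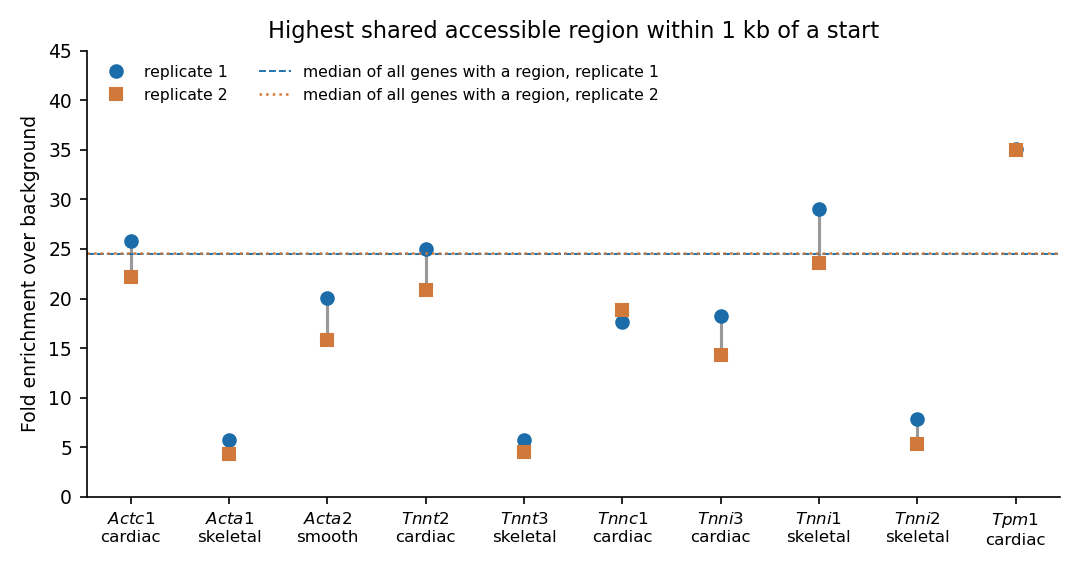
Fold enrichment (y axis, linear) of the highest shared region within 1 kb of a start of each member in replicate 1 (circles) and replicate 2 (squares), with the median over all protein-coding genes that have a region as dashed and dotted lines. *Acta1*, *Tnnt3* and *Tnni2* sit between 4.27 and 7.88, and the other 7 members at 14.3 or more, *Tnnc1* by its region at the *Nisch* start.

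*Actc1*, the cardiac α-actin gene (chr2:114047282-114053548, minus strand), had both of its annotated starts inside the shared region chr2:114052547-114053564. Its fold enrichment was 25.8 in replicate 1 and 22.1 in replicate 2, from about 94 and 87 reads at the summits (95% Poisson intervals 76.0 to 115 and 69.7 to 107, which cover counting error only). The summits lay 107 and 4 bases upstream of the nearest start. A separate region upstream, chr2:114053924-114054656, reached 25.8 and 21.6, and its summit window held a MEF2 site. The promoter region and this one also lie within 1 kb of a start of the non-coding gene *C130080G10Rik*. A further region, chr2:114045572-114052357, ran along the gene for 6786 bases and past its 3′ end. In replicate 1 this stretch and the promoter were a single peak of 8105 bases whose summit is the promoter's, so the value of 25.8 carried by the further region in replicate 1 is that of the promoter. In replicate 2 the stretch was a peak of its own with a fold enrichment of 12.1.

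*Acta1*, the skeletal α-actin gene (chr8:123891769-123894751, minus strand), has 1 annotated start and had 1 region there, chr8:123894784-123894947. The region was 164 bases long and ended 33 bases short of the GENCODE start and 9 bases short of the RefSeq start from which the promoter positions above are counted. Its fold enrichment was 5.70 in replicate 1 and 4.27 in replicate 2, from about 20 and 16 reads (95% Poisson intervals 12.2 to 30.9 and 9.15 to 26.0). In replicate 1, 48.7% of the peaks had a lower fold enrichment, and in replicate 2 31.7% did. On the log2 scale *Actc1* exceeded *Acta1* by 2.18 in replicate 1 and 2.37 in replicate 2 (mean 2.27 ± 0.14, SD, n = 2), a ratio of 4.52 and 5.18. The values of the 2 genes did not overlap between replicates. With q-values of at most 1e-10 or a reciprocal overlap of 50% the *Acta1* region was lost, and the difference had no value.

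*Acta2*, the smooth muscle α-actin gene (chr19:34241090-34255590, minus strand), had both starts inside chr19:34254162-34255853, with fold enrichments of 20.1 and 15.8. A second region, chr19:34252181-34252968, covered coding sequence downstream of the starts at 16.3 and 14.1. The values of *Acta2* lay below those of *Actc1* and above those of *Acta1* in both replicates.

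*Tnnt2*, the cardiac troponin T gene (chr1:135836354-135852260, plus strand), has 10 annotated starts, of which the 6 at its 5′ end all fell inside chr1:135835557-135836594. This region reached 25.0 in replicate 1 and 20.9 in replicate 2, from about 91 and 82 reads. The 4 starts further inside the gene had no shared region within 1 kb. At 3 of those each replicate had a peak of low fold enrichment (3.53 and 3.52) that did not overlap the other's. Both summits of the main region lay upstream of the start cluster, by 163 and 142 bases, and the replicate 1 summit window held the GATA element and both E-boxes shown above.

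*Tnnt3*, the fast skeletal troponin T gene (chr7:142498836-142516009, plus strand), had no peak in either replicate within 1 kb of the 5 starts at its 5′ end, and the nearest shared region was 1738 to 1774 bases away from them. The region chr7:142500610-142500831, in an intron, lay 786 bases upstream of the nearest of 3 alternative starts and had fold enrichments of 5.70 and 4.53, from about 20 and 17 reads. This was the only shared region within 1 kb of any of its 10 starts. *Tnnt2* exceeded *Tnnt3* by 2.13 and 2.21 on the log2 scale (mean 2.17 ± 0.05, SD, n = 2), and their values did not overlap. The *Tnnt3* region was lost with q-values of at most 1e-10 or 500 bp on each side of a start, which left no difference to compute.

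*Tnnc1*, which encodes the troponin C of heart and slow skeletal muscle (chr14:31208312-31211729, plus strand), had all 3 of its starts inside chr14:31208076-31208585, at 9.24 in replicate 1 and 11.1 in replicate 2. In replicate 2 this was part of a longer peak with its summit in the next region downstream, chr14:31208650-31209671, which reached 15.8 and 11.1 in an intron and held a MEF2 site and a GATA element in its summit window. The highest region within 1 kb, at 17.7 and 18.9, was chr14:31205247-31207621, whose summits lay 1612 and 1593 bases upstream and which also covers a start of the neighbouring gene *Nisch*. With only regions whose replicate 1 summit is inside the window, or with a window of 500 bp on each side of a start, the mean for *Tnnc1* was 13.4 in place of 18.3.

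*Tnni3*, the cardiac troponin I gene (chr7:4518305-4524229, minus strand), had a shared region within 1 kb of all 8 of its starts, and 5 of them inside chr7:4522193-4523000. That region reached 18.2 and 14.3, from about 66 and 56 reads, with summits 47 and 46 bases upstream of the nearest start. In replicate 2 it was a single peak with chr7:4521134-4522115, which stood at 13.3 in replicate 1. The 5′-most start lay in a weaker region, chr7:4524193-4524627, at 8.42 and 8.04. Of the 32-base sequences around the *Tnni3* starts, 83.3% occurred once in the genome, the lowest share of the 10 members (97.1% to 100% in the others), and the effect of that on its values was not tested.

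*Tnni1*, the slow skeletal troponin I gene (chr1:135779434-135810989, plus strand), was the member labelled skeletal that stood among the cardiac genes. Of its 8 starts, 5 lay inside chr1:135799076-135801193, which reached 29.1 in replicate 1 and 23.6 in replicate 2, from about 106 and 93 reads. The summits lay inside the gene, 806 and 848 bases downstream of the nearest start. The other 3 starts, at the far 5′ end and further inside the gene, had no peak within 1 kb in either replicate. The ranges of *Tnni1* and *Actc1* overlapped.

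*Tnni2*, the fast skeletal troponin I gene (chr7:142441808-142444410, plus strand), had no shared region in its gene body. The region that counted, chr7:142440565-142440990, ended 818 bases upstream of the first start, outside any annotated gene, and its fold enrichment was 7.88 and 5.28, from about 28 and 20 reads. Its summits were 1047 and 1005 bases from that start, so that no region remained when the replicate 1 summit had to be within 1 kb. *Tnni3* exceeded *Tnni2* by 1.21 and 1.44 on the log2 scale (mean 1.32 ± 0.16, SD, n = 2) and *Tnni1* exceeded it by 1.88 and 2.16 (mean 2.02 ± 0.20, SD, n = 2). Neither pair overlapped, but with a reciprocal overlap of at least 50% asked of the replicate peaks the main *Tnni3* region was lost and the difference from *Tnni2* was 0.35.

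*Tpm1*, the α-tropomyosin gene used in heart, skeletal and smooth muscle and in other cells (chr9:67022590-67049406, minus strand), has 21 annotated starts in 2 clusters and 1 start further downstream. The internal cluster of 7 starts lay inside chr9:67043129-67044527, the highest region of any member at 35.0 and 34.9, from about 128 and 138 reads and with summits 2 bases downstream and 8 bases upstream of the nearest start. The upstream cluster of 13 starts lay inside chr9:67048682-67049682, at 24.7 and 17.3. The internal promoter therefore stood above the upstream one in both replicates, and their values did not overlap. The remaining start had no peak within 1 kb.

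**Figure D2:**
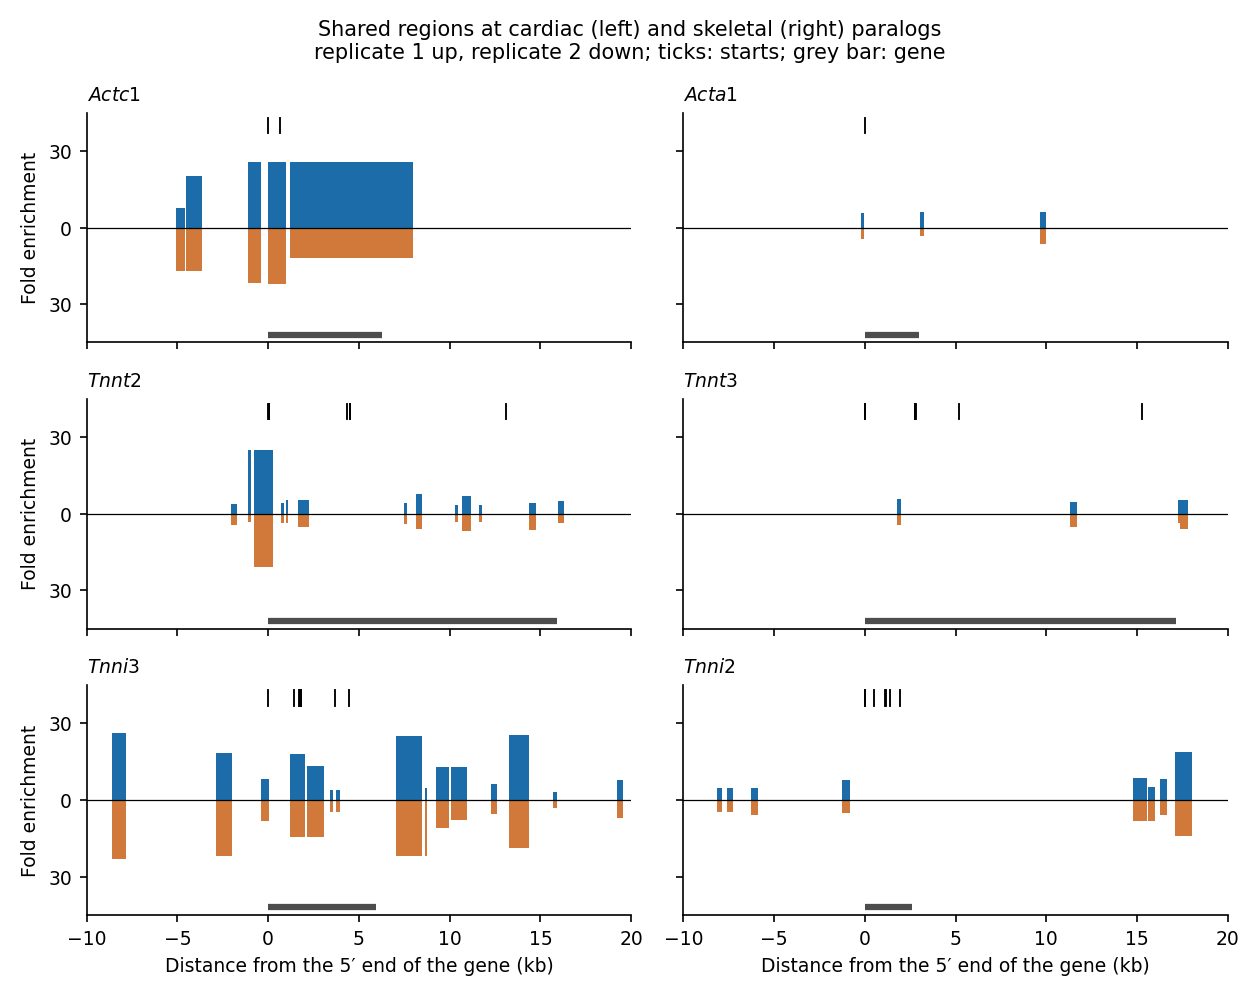
Shared regions around 3 cardiac genes (left) and their skeletal paralogs (right), by distance in kb from the 5′ end of the gene; bars reach the fold enrichment of the replicate 1 peak (up) and of the replicate 2 peak (down) over the whole region, whatever the shape of the signal inside it, and are drawn at least 0.12 kb wide. The 3 left panels have regions above 14 at the starts, and no region within 1 kb of a start in the right panels exceeds 7.88.

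**Figure D3:**
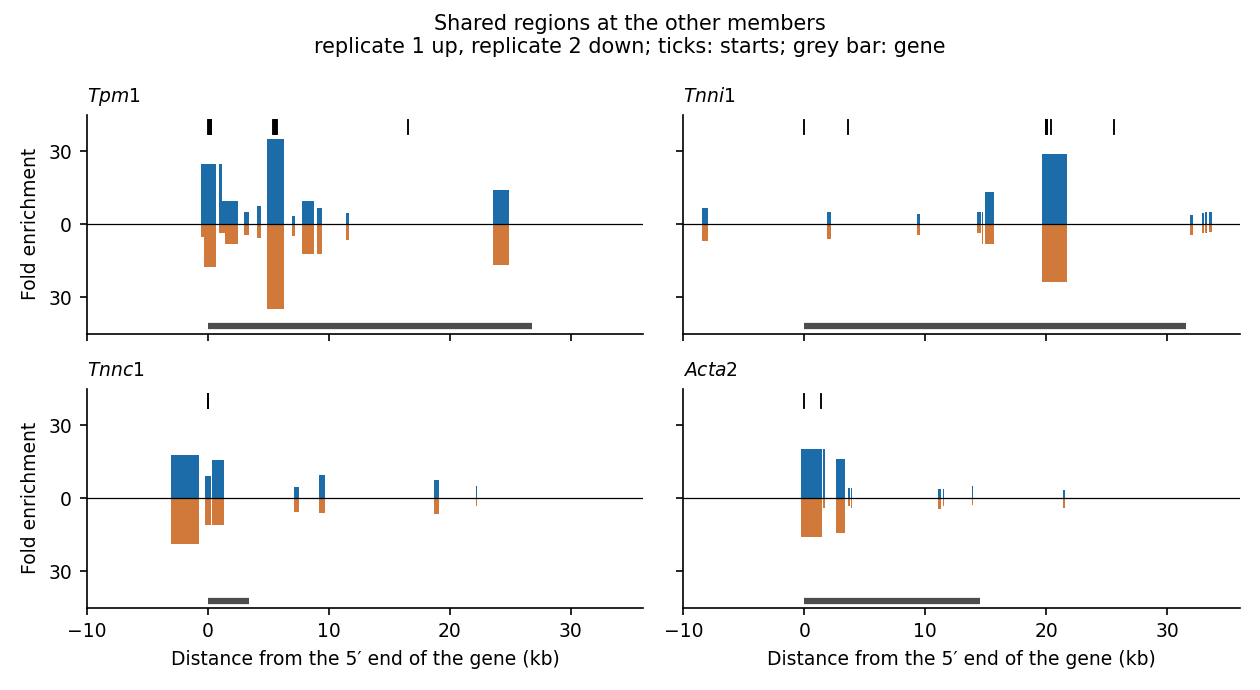
The same plot for *Tpm1*, *Tnni1*, *Tnnc1* and *Acta2*, with starts as ticks and the gene as a grey bar. *Tpm1* has a region of 35.0 at its internal starts and one of 24.7 at its upstream starts in replicate 1, and the tall region of *Tnni1* lies at 5 of its 8 starts, well downstream of the 5′ end of the gene record.

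Taken as sets, the 5 cardiac genes had fold enrichments from 17.7 to 35.0 in replicate 1 (median 25.0) and from 14.3 to 34.9 in replicate 2 (median 20.9). The lower end in replicate 1 is *Tnnc1* with the region at the *Nisch* start; with only regions whose replicate 1 summit is inside the window, *Tnnc1* stood at 15.8 and 11.1, the cardiac genes ran from 15.8 and from 11.1, and their medians were the same. The upper end in both replicates is *Tpm1* at its internal starts, and its upstream starts stood at 24.7 and 17.3. The 4 skeletal genes ran from 5.70 to 29.1 (median 6.79) and from 4.27 to 23.6 (median 4.90). Without *Tnni1*, the skeletal genes reached at most 7.88 and 5.28, below every cardiac gene. The start base itself was inside a shared region in 7 of the 10 members, the 5 cardiac genes, *Tnni1* and *Acta2*, against 64.0% of all protein-coding genes; this measure was added after the values had been seen. Of the 72 distinct starts of the members, 52 had a shared region within 1 kb (58.0% of all starts of protein-coding genes did), 46 had one within 100 bp (52.6% of all starts) and 44 lay inside one (51.0% of all starts).

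The share of gene body in shared regions (those at starts included) ordered the members differently, with *Acta1*, *Tnni2* and *Tnnt3* again lowest. It was 97.0% for *Actc1*, 37.9% for *Tnnc1*, 37.4% for *Tnni3*, 28.4% for *Tpm1*, 20.8% for *Acta2*, 16.8% for *Tnnt2*, 12.5% for *Tnni1* and 3.46% for *Tnnt3*, and no base of *Acta1* or *Tnni2* was covered. All cardiac genes (16.8% to 97.0%) lay above all skeletal genes (0 to 12.5%). The median over all protein-coding genes was 3.08%. Coverage as high as that of *Actc1* was seen in 86 genes in all, and of the 16641 genes at least as long as *Actc1*, 2 reached it, itself included. The 6786 base region of *Actc1* was the 4th longest of all 98924 shared regions.

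**Figure D4:**
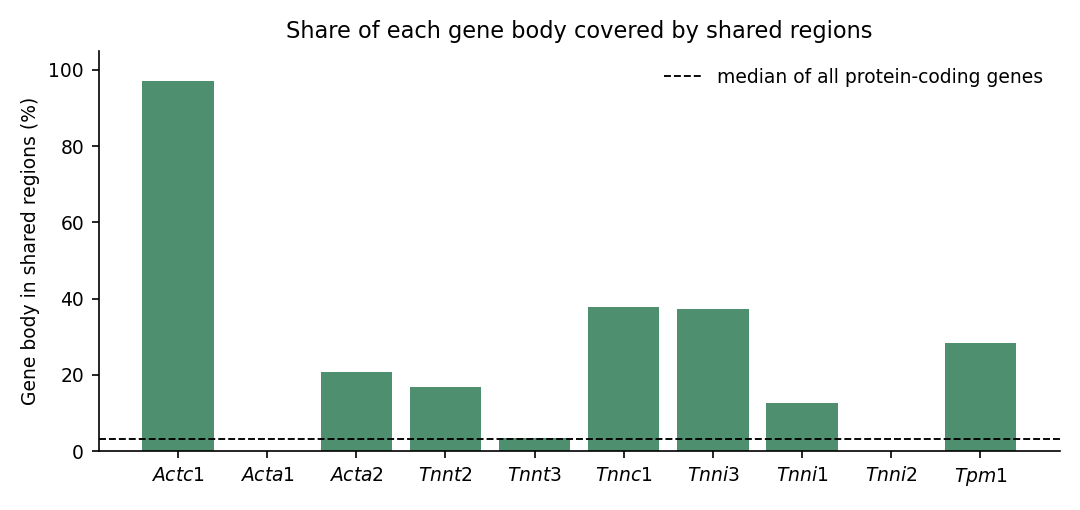
Percent of the bases of each gene body, from the first to the last annotated base, that lie in shared regions (bars), with the median of all protein-coding genes, 3.08%, as a dashed line. *Actc1* stands at 97.0%, the next member at 37.9%, and *Acta1* and *Tnni2* at 0.

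Within the gene body and 50 kb on each side, the members' loci held 155 shared regions, 33 of them in the loci of more than 1 member. *Tnnt2* and *Tnni1*, neighbours on chromosome 1, shared 23 regions, and *Tnnt3* and *Tnni2*, neighbours on chromosome 7, shared 10. Of the 155, 26 were within 1 kb of a member's start, 34 at a start of another protein-coding gene and 95 further from any. The number of regions was 37 for *Tnni1*, 28 for *Tnni3*, 26 for *Tnnt2*, 21 for *Tnnt3*, 19 for *Tnni2*, 16 each for *Tnnc1* and *Tpm1*, 13 for *Acta2*, 7 for *Actc1* and 5 for *Acta1*. Per 100 kb these were 28.1 regions for *Tnni1* and 26.4 for *Tnni3*, more than at 99.9% and 99.8% of all protein-coding genes, and 4.86 for *Acta1*, more than at 45.8%; the median gene had 5.41. Cardiac genes (6.59 to 26.4 per 100 kb) and skeletal genes (4.86 to 28.1) overlapped in this measure. *Actc1* had the largest covered share of gene body among the members and 6.59 regions per 100 kb, more than at 59.2% of genes. Its stretch of 6786 bases counts as 1 region here, so the 2 measures are linked. With q-values of at most 1e-10 in both replicates the locus of *Tnnt2* held 6 regions, that of *Tnni1* 16 and that of *Tnni3* 18. Under that setting *Actc1* held 6 and *Acta2* 5. With 25 kb on each side *Tnni1* held 20 and *Tnni3* 22, and with 100 kb *Actc1* held 15 and *Acta1* 18. The order of *Tnni1* and *Tnni3*, and of *Actc1* with *Acta1* and with *Acta2*, depends on these settings. With a reciprocal overlap of 50% between the replicate peaks the loci held 24 regions for *Tnni1*, 17 for *Tnni3*, 14 for *Tnnt2* and 8 for *Acta2*, and without regions at starts of other protein-coding genes those of *Tnni3* and *Tnni2* held 17 and 10.

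**Figure D5:**
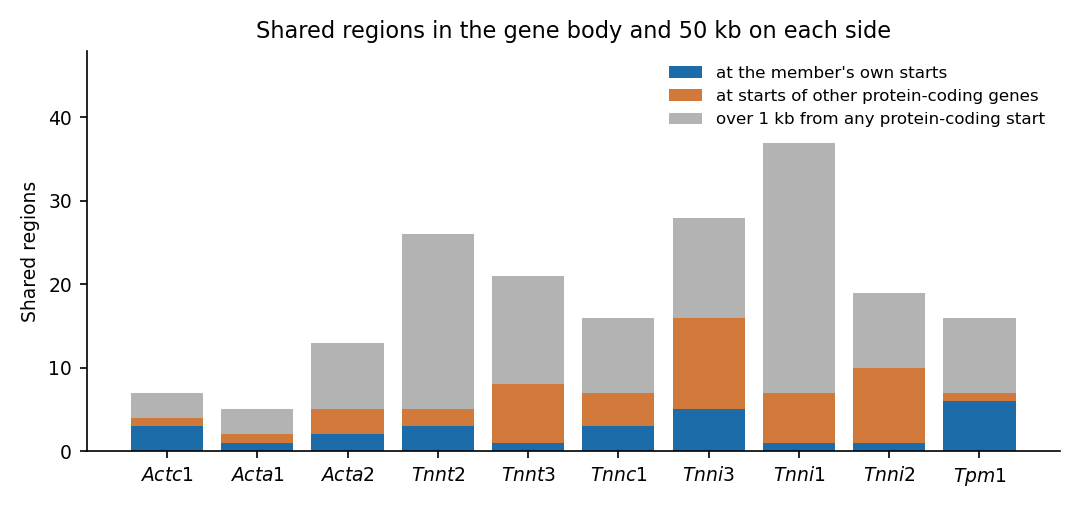
Number of shared regions in each member's gene body and 50 kb on each side, stacked by position: within 1 kb of the member's own starts, of a start of another protein-coding gene, or over 1 kb from any. *Tnni1* has 37 regions, 30 of them over 1 kb from any protein-coding start, and *Acta1* has 5.

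Away from protein-coding starts, the highest region in the *Actc1* locus was chr2:114057220-114058056, about 4.09 kb upstream of the gene at 20.4 and 16.8, at a start of the non-coding gene *C130080G10Rik*. In the *Tnni3* locus it was chr7:4526222-4527130 at 18.5 and 22.1, about 2.45 kb upstream, in the neighbouring gene *Dnaaf3* and at a start of the non-coding gene *Gm15873*. In the *Tpm1* locus it was chr9:67024521-67025818 at 14.1 and 16.6, over coding sequence near the 3′ end of *Tpm1*, followed by the intronic region chr9:67040637-67041626 at 9.78 and 12.3. The *Tnni1* locus held chr1:135761628-135762199 at 15.8 and 16.8, between genes and 17.5 kb upstream of the nearest start, and chr1:135752853-135753332 at 14.9 and 14.1. For *Acta2* the intergenic region chr19:34265608-34266111, 10.3 kb upstream, reached 12.0 and 12.1. The first-ranked region of *Tnnt2*, chr1:135835261-135835322, is 62 bases cut from the edge of the replicate 1 promoter peak (25.0) where replicate 2 had a peak of 3.02, and the next, chr1:135794360-135795141, lies in *Tnni1* at 13.3 and 8.04.

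Of the remaining loci, the highest region of *Acta1* away from protein-coding starts was chr8:123924688-123925206 at 10.1 and 7.54, 30.2 kb upstream in an intron of *Nup133*. That of *Tnnt3* was chr7:142487306-142487963 at 9.24 and 9.80, in *Lsp1*, and that of *Tnni2* was chr7:142392768-142393645 at 14.1 and 16.8, between genes and 48.6 kb upstream. In the locus of the cardiac gene *Tnnc1* it was chr14:31260326-31261068 at 8.96 and 11.3, in *Dnah1* 52.4 kb downstream. Protein-coding neighbours with a region at a start included *Ccsap* next to *Acta1* (32.6 and 35.9), *Ppp1r12c* (34.2 and 31.9) and the slow skeletal troponin T gene *Tnnt1* (25.0 and 21.9) next to *Tnni3*, *Phlda3* next to *Tnni1* (28.5 and 31.2) and the gap junction gene *Gjd2* next to *Actc1* (6.52 and 7.04). The *Tnnt1* region overlapped the levels of *Tnnt2*.

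Of 20 other thin filament genes, 17 had a shared region within 1 kb of a start, against the 67.6% of all protein-coding genes, and the median of their mean fold enrichments was 14.5, compared with 18.1 for the members. The highest were *Actb*, the cytoplasmic β-actin gene (39.4 and 42.2), and *Tpm3* (36.4 and 39.7), followed by *Tmod1*, which encodes the tropomodulin that caps thin filament ends in heart (34.0 and 35.2). *Lmod2*, a leiomodin of cardiac muscle, stood at 28.5 and 28.2, and *Lmod3* at 12.8 and 10.1. The 3 genes without a region were the fast skeletal troponin C gene *Tnnc2*, the enteric smooth muscle actin gene *Actg2* and the cytoplasmic γ-actin gene *Actg1*. Around the starts of *Actg1* 59.2% of the 32-base sequences occurred once in the genome, the lowest share of the 30 thin filament genes examined, whereas *Tnnc2* stood at 100% and *Actg2* at 97.3%; the part of repeated sequence in the missing *Actg1* region was not tested. *Tnnc2* was thus without a region while its paralog *Tnnc1* had one over all of its starts.

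All 8 cardiomyocyte markers examined, among them *Nkx2-5*, *Myh6* and *Ttn*, had a region at a start, with medians of 14.5 and 11.4, where 67.6% of all protein-coding genes had one. Of 8 skeletal muscle markers 4 had one, with medians over those 4 of 14.4 and 15.0. *Myog*, *Myf5*, *Pax7* and *Myh3* had none, and *Myod1* had one of 4.89 and 5.53 that did not cover its start. *Myf6*, a myogenic transcription factor gene, had one of 11.4 and 10.3 that did not cover its start either, and 65.4% of its gene body lay in shared regions. The regions of *Ckm* (17.4 and 19.6) and *Actn3* (35.6 and 28.7) also lie at starts of *Klc3* and *Zdhhc24*, and that of the cardiomyocyte marker *Myl3* at a start of *Pth1r*. All 5 smooth muscle, 5 endothelial and endocardial and 4 epicardial markers and 3 of 4 blood markers had a region; with so few genes in each list, nothing is read from a share near that of all genes. The highest shared region at the starts of *Hbb-bs*, an adult β-globin gene, was 24.4 and 27.7.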

How the data were processed

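ATAC-seq of WT mouse hearts at E11.5 (n = 2 replicates of 2 hearts each, single-end reads of 50 bp) was analysed from the 2 peak lists that the authors deposited. Per the submitters' processing notes reads were trimmed with Trim Galore 0.6.6 and cutadapt, aligned to GRCm38/mm10 with Bowtie2 2.4.2 and handled with SAMtools 1.12. Each replicate had its own MACS2 run by the authors, set to a genome-wide background. Columns of the deposited lists hold the fold enrichment of the summit (a linear ratio), −log10 of its p-value and of its q-value, a score equal to 10 times the latter as a whole number, and where the summit lies. The shortest peak was 200 bp in both, and the largest p-values were 0.000476 and 0.00104. Embryos were FVB, whereas the reference is C57BL/6J.

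Both lists were intersected (minimum overlap 1 bp, overlaps that touch merged), and each shared region took the values of the highest overlapping peak of each replicate, whose summit can lie outside the trimmed region (inside in both replicates for 15 of 26 regions at member starts). Fold enrichments are thus peak maxima and not coverage profiles. Starts were those of every GENCODE M21 transcript of a gene. A region counted at a start within 1 kb, and a locus was the gene body and 50 kb on each side. A difference between paralogs is the log2 ratio of their highest start regions within a replicate, given as mean ± SD over n = 2. It was called larger than the replicate spread where its sign was the same in both replicates and the 2 genes' values did not overlap. With 2 replicates of a single group no test across samples was run. Reads at a summit were recovered from the step of the fold enrichment. Promoters are from RefSeq (GRCm38.p6), and motifs were searched on both strands in them and in windows of 201 bp on the replicate 1 summits; matches of different motifs could overlap. Uniqueness is the share of 32-base sequences found once in the chromosomes, on either strand. The genes named are the members, the 3 highest shared regions of each locus over 1 kb from any protein-coding start (summarised), neighbours with a region at a start and the further lists. Members and lists were chosen with earlier results of these data known. The overlap code was tested on simulated peaks. The software was SciPy 1.17.1, pandas 2.3.3 and NumPy 2.4.6 under Python 3.11.15, with Matplotlib 3.10.9 for figures.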

Additional observations from a re-analysis of the deposited data

How the results depend on the processing

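No paired analysis was possible because there is a single group, with nothing to pair its replicates to. Under the alternatives tried (stricter p- and q-values, reciprocal overlap of the replicate peaks, either replicate alone, other windows around starts and loci, protein-coding transcripts only, other make-ups of the sets), no paralog difference that could be computed changed sign. Values of a single replicate for fold enrichments (20) and their differences between paralogs (8) lie within 1 SD of the mean of 2 by construction and are left out here. Of the other 69 alternative values for the main counts and paralog differences, 62 stayed within 1.5 times the count or within 1 SD of the difference, and so did 115 of 143 for single members, whose counts were held to 1.5 times and whose fold enrichments to 1 SD between replicates. The cardiac set had 3 genes with a region at a start in place of 5 without *Tnnc1* and *Tpm1*, by its construction. The skeletal set had 1 gene in place of 4 with q-values of at most 1e-10 and where the start base had to be inside a region (an alternative chosen after seeing the data), and 2 with 500 bp on each side. *Acta1*, *Tnnt3* and *Tnni2* were the genes lost under the first pair of settings, and *Tnnt3* and *Tnni2* under the last, so that their paralog differences have no value there. *Acta1* also had no region with reciprocal overlap of the replicate peaks, and *Tnni2* none with the replicate 1 summit inside the window, so *Actc1* minus *Acta1* and both *Tnni2* differences have no value under those settings. The loci held 83 shared regions in place of 155 with q-values of at most 1e-10. *Tnni3* minus *Tnni2* was 0.35 in place of 1.32 when replicate peaks had to overlap reciprocally by 50%, where the main *Tnni3* region was lost, and 1.65 with 2 kb on each side of a start, which takes in the region in *Dnaaf3*. About 16 to 28 reads stood behind the summits of *Acta1*, *Tnnt3* and *Tnni2*, and differences among these 3 genes were not tested.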
